A study of Homo sapiens with 2 samples.

Results

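TXNIP, the 4 arrestin-domain genes ARRDC1, ARRDC2, ARRDC3 and ARRDC4, and the 3 glucose-sensing factors MLX, MLXIP and MLXIPL were followed. The cells were labelled MDA-MB-231, a long-established culture line from a triple-negative breast cancer. The genes were chosen by name, and all 8 of the 19775 genes named on the array had at least 1 probe set, 19 probe sets in all. The choice was made with earlier results of the same pair of arrays known, so the differences below are descriptions and none was tested. Per the labels, cells were transfected for 48 h with a control siRNA (control) or with an siRNA against KMO (siKMO), the gene of kynurenine 3-monooxygenase, an enzyme of tryptophan breakdown. 1 Affymetrix U133 Plus 2.0 array was made per condition, both from the same line in the same medium. Whether the line was unmodified is not settled, since the array names carry strings usual for short hairpins. With no replicates there is no estimate of the spread between cultures, and each difference describes these 2 dishes.

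TXNIP and the ARRDC proteins are the alpha-arrestins, adaptors that bring membrane proteins to ubiquitin ligases of the NEDD4 family and so to endocytosis. TXNIP also binds reduced thioredoxin and slows glucose uptake. MLXIP (MondoA) and MLXIPL (ChREBP) are transcription factors that enter the nucleus when glucose 6-phosphate accumulates, pair with MLX and switch on genes that carry a carbohydrate response element, a pair of E-box-like half-sites. TXNIP and ARRDC4 are the classic targets of MLXIP in cultured cells, which makes their RNA a common readout of sugar supply.

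The levels given are log2 RMA values, so that a difference of 1 is 2-fold, and every difference is siKMO minus control. A gene takes the values of its leading probe set, the one with the highest mean, and is called measured if that mean reaches 6, a round minimum that left 8997 genes. The KMO probe sets stood between 2.11 and 2.95 with control siRNA and between 2.35 and 2.92 with KMO siRNA, near background, so they do not check the knockdown, and the array names carry strings usual for short hairpins where the titles name siRNA. All 8 genes chosen as markers of the cell line were measured and 0 differed by 2-fold. Outside that list, the E-cadherin gene CDH1 stood at 10.54 with control siRNA and 8.62 with KMO siRNA. The claudin gene CLDN7 stood at 8.44 and 7.33, and the claudin gene CLDN4 at 8.67 and 8.13. The keratin genes KRT8 and KRT18, among the 8, differed by 0.17 and 0.15. With CDH1 and both claudin genes above the minimum, the 8 markers do not settle whether the cells were the line named in the labels. Nor do they settle whether the 2 dishes were alike in cell type. Neither was tested. ESR1 and PGR, the hormone receptor genes that triple-negative cells lack, were under the minimum, while ERBB2 and GATA3 were measured at 7.44 and 7.42 with control siRNA. Of 12 markers of leukocytes, endothelium, fat, liver and muscle or of fibroblasts, only COL1A1 was measured, at 7.08 and 6.90.

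The promoter windows of 4 of the genes are shown because the first 3 belong to the alpha-arrestin genes with the largest differences and the last to MLX, whose level hardly differed. Each runs from 250 bases before to 50 bases after a RefSeq start site of assembly GRCh38.p14, and the ARRDC3 window is that of the second of its 2 listed starts. Capitals mark matches on either strand to the carbohydrate response element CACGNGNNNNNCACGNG, the E-box CACGTG, the forkhead site GTAAACA and the CCAAT box.
TXNIP, chr1:145996530-145996829, minus strand: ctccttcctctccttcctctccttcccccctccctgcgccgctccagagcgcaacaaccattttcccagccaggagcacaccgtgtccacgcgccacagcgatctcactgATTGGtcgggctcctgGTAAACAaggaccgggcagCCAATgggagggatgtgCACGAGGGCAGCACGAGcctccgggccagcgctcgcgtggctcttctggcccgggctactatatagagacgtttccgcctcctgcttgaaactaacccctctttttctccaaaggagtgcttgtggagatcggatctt
ARRDC4, chr15:97960453-97960752, plus strand: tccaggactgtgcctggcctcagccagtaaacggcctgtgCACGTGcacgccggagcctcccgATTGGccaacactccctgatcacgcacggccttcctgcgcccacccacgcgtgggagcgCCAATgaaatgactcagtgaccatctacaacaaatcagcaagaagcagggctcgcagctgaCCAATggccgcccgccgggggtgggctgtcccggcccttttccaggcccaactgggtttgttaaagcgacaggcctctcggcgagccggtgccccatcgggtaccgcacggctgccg
ARRDC3, chr5:91380048-91380347, minus strand: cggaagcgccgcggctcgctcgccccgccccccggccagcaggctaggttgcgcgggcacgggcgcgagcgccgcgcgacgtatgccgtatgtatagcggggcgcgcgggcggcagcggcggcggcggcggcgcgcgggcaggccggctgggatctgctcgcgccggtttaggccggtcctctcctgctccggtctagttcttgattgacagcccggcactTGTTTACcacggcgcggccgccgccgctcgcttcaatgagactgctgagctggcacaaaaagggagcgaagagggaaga
MLX, chr17:42566850-42567149, plus strand: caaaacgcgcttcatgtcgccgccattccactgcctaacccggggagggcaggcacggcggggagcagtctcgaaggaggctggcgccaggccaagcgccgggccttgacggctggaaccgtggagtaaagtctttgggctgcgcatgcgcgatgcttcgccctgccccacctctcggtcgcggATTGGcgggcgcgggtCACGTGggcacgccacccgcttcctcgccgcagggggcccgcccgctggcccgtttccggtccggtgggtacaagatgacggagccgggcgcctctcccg

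The TXNIP window held the carbohydrate response element from 88 to 72 bases before the start site, with both half-sites reading CACGAG and 5 bases between them. That pattern occurred in 20 of 35116 promoter windows (0.057%), and TXNIP was the only one of the 8 genes to hold it in any window. It is 1 fixed form of the element, with both half-sites in the same direction. Inverted or looser forms were not searched, so the other genes are not shown to lack such an element. A forkhead site lay 124 to 118 bases before the same start, and CCAAT boxes lay on either side of it. The window of the second listed TXNIP start held none of these 4 motifs. The ARRDC4 window held 1 E-box, from 210 to 205 bases before its start, and 3 CCAAT boxes. The MLX window held an E-box from 50 to 45 bases before its start. E-boxes were found in 7.26% of all windows, forkhead sites in 3.42% and CCAAT boxes in 34.6%. The 8 genes had 11 windows between them. Counted per gene, 2 had an E-box (ARRDC4 and MLX), 2 a forkhead site (TXNIP and ARRDC3) and 7 a CCAAT box. The forkhead site of ARRDC3 lay on the opposite strand, 29 to 23 bases before its second start. Counts per gene and shares per window are not directly comparable. MLXIP alone held the cyclic AMP response element TGACGTCA, found in 1.85% of windows. The hypoxia response core ACGTG, in 21.4% of windows, lay in those of TXNIP, ARRDC4 and MLX, and in the last pair it overlapped the E-box. A match is a run of letters and not a measured binding site.

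**Figure D1:**
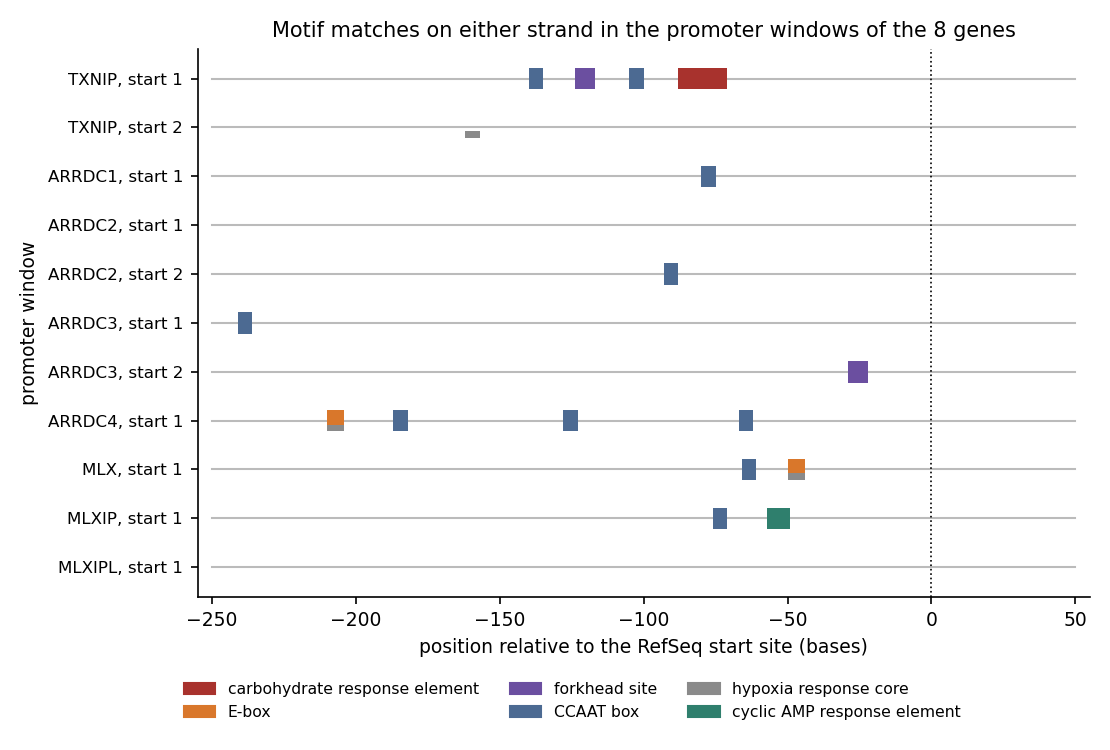
Motif matches in the 11 promoter windows of the 8 genes, drawn by distance from the RefSeq start site in bases (dotted line). Boxes are matches on either strand, coloured by motif; the carbohydrate response element appears in the first TXNIP window only, and E-boxes appear in ARRDC4 and MLX.

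TXNIP was 2.58-fold lower in the siKMO array and ARRDC4 was lower by at least 1.82-fold, while MLX and MLXIP, whose proteins switch both genes on, hardly differed. ARRDC3 was 1.87-fold lower, and ARRDC2 and ARRDC1 were lower by less. All 5 alpha-arrestin genes were measured and all 5 were lower, against 44.1% of all measured genes, with a median difference of -0.91. On the deposited values 2 of the 7 measured genes, TXNIP and ARRDC4, were lower by at least 2-fold, against 1.39% of all measured genes, and 0 were higher by as much, against 0.856%. The count was 1, TXNIP alone, with levels under 6 taken as 6 or at a level minimum of 7. At 1.5-fold 3 of the 7 were lower, against 5.41% of all measured genes. The median difference was -0.32 over the 7 and 0.04 over all measured genes. Since the genes were picked with these values known, the shares say nothing about chance.

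TXNIP stood at 12.21 with control siRNA and 10.84 with KMO siRNA with its leading probe set, a difference of -1.37. Its other probe sets stood at 11.43 and 9.88 and at 11.25 and 9.84, differences of -1.55 and -1.41. All 3 probe sets were therefore lower in the siKMO array, by 2.58- to 2.93-fold, against 1.21% of measured probe sets that were lower by at least 2-fold. Probe sets of one gene test the measurement of a transcript and not the treatment, and over 3777 genes with several measured probe sets their differences had a pooled SD of 0.18. Differences shrank at high levels: among the 500 probe sets nearest in mean level to the leading one of TXNIP, the central 95% of differences ran from -0.56 to 0.41, and 0% were lower than that of TXNIP. Of 388 measured genes with a mean of at least 11, 2 were lower by at least 2-fold, and TXNIP was 1 of them. All TXNIP probe sets end in _s_at, the suffix for probes that can match several transcripts.

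ARRDC4, the other classic target of MLXIP, stood at 6.86 with control siRNA and 5.51 with KMO siRNA on its only probe set. The deposited difference was -1.35, but the gene passed the minimum of 6 only through its control level, and with 6 in its place the difference was -0.86. Among the 500 probe sets of nearest mean level, 0.4% had a lower difference than the deposited one, and the central 95% ran from -0.88 to 0.88. The SD of those differences was 0.43, against 0.24 among the probe sets near the level of TXNIP, so ARRDC4 was read where values scatter more widely.

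ARRDC3, an adaptor that directs the beta2-adrenergic receptor and integrin beta4 to degradation, stood at 8.52 with control siRNA and 7.62 with KMO siRNA, a difference of -0.91 on 1 probe set. Among the 500 probe sets of nearest mean level, 2.0% had a lower difference. It was the 166th of 8997 measured genes counted from the lowest deposited difference, while TXNIP was the 38th. The place of ARRDC4 was not settled, since its difference was -1.35 as deposited and -0.86, weaker than that of ARRDC3, with 6 in place of its siKMO level.

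ARRDC2, a less studied adaptor of the family, went from 7.23 with control siRNA to 6.92 with KMO siRNA, a difference of -0.32. ARRDC1, which recruits TSG101 to the plasma membrane and releases small vesicles, stood at 7.31 and 7.07, a difference of -0.24. Its second probe set lay near background at 3.36 and 3.43 and differed by 0.07, so the direction of ARRDC1 rests on 1 probe set. Both differences were inside the central 95% of probe sets at their level, with 12.2% and 22% of those lower.

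MLX, the shared dimer partner, stood at 9.19 with control siRNA and 9.17 with KMO siRNA, a difference of -0.01. Its 4 measured probe sets differed by -0.02 to 0.14 and those under the minimum by -0.05 and 0.23, so no direction was settled. MLXIP stood at 7.74 and 7.79 on one probe set and at 7.70 and 7.75 on another, a difference of 0.05 on both. Its further probe sets lay near background, at 3.41 and 3.55 and at 2.79 on both arrays. MLXIPL, the form of liver and fat, was under the minimum at 5.16 with control siRNA and 4.88 with KMO siRNA, and no fold is given. The RNA of the 2 measured MLX factors therefore differed by at most 0.05 between the dishes on their leading probe sets. These arrays do not show where in the cell the proteins were, which is how sugar controls them.

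**Figure D2:**
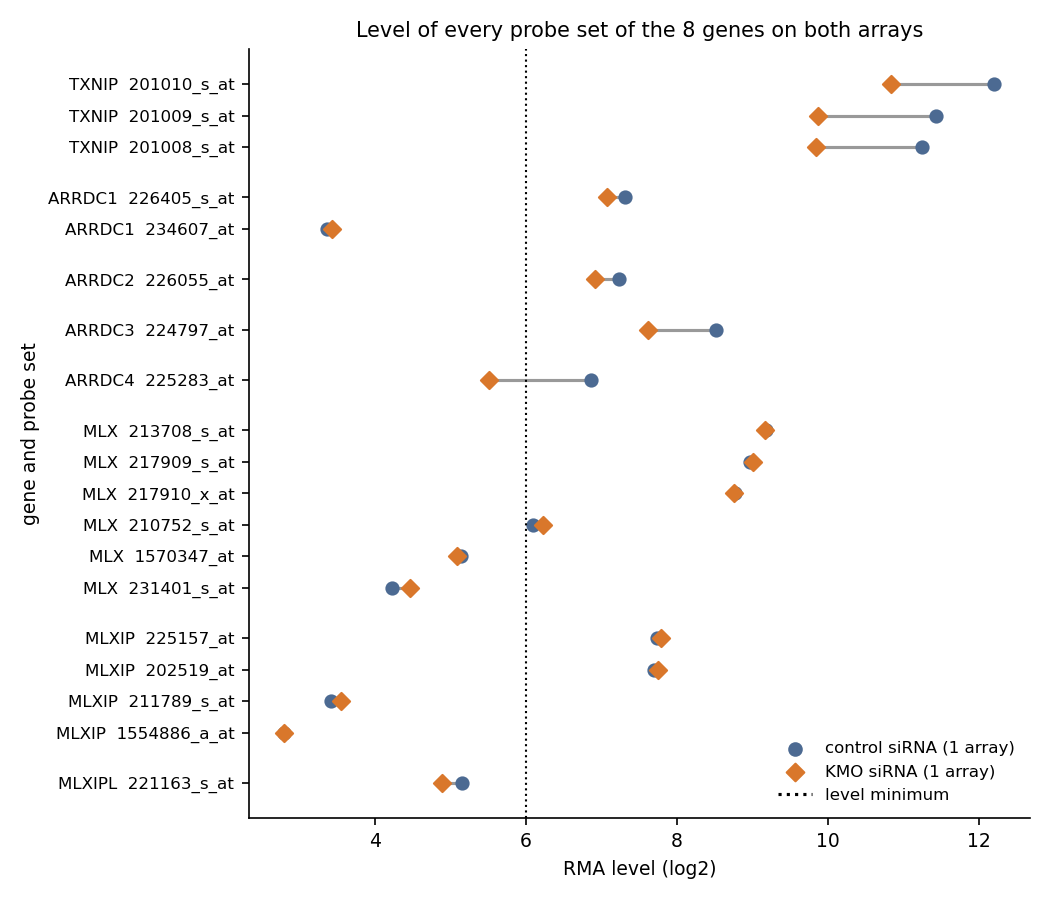
RMA level on the log2 scale of all 19 probe sets of the 8 genes in the control array (circles) and the siKMO array (diamonds), 1 array each, with the level minimum of 6 dotted. The 3 TXNIP probe sets and those of ARRDC3 and ARRDC4 lie clearly lower in the siKMO array, and those of MLX and MLXIP nearly coincide.

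**Figure D3:**
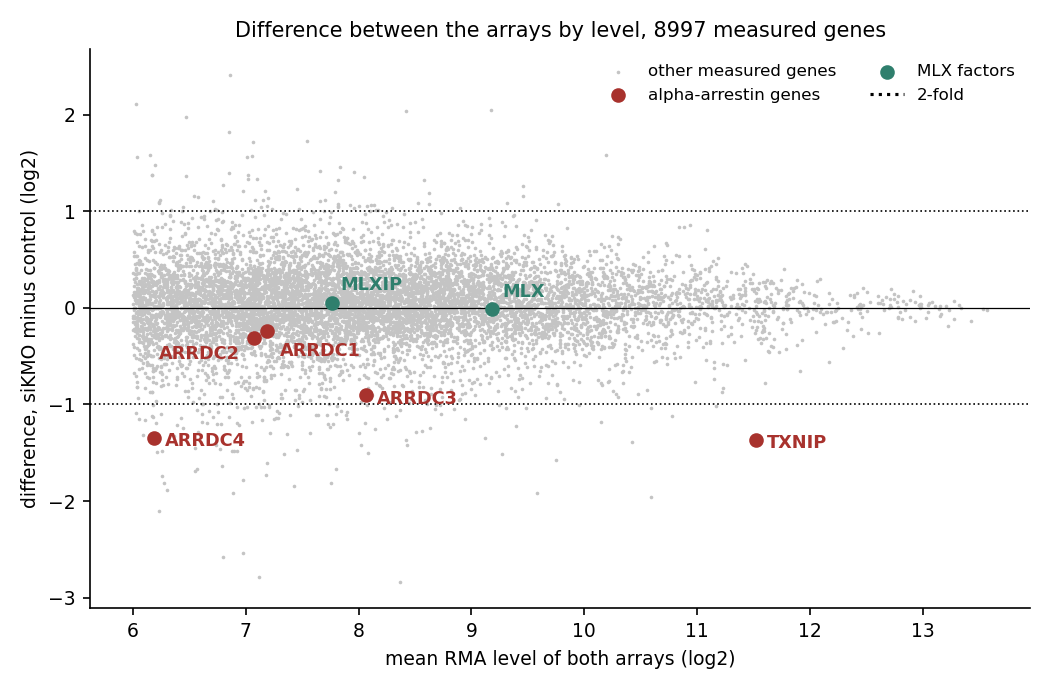
Difference between the arrays (siKMO minus control, log2) against the mean level for 8997 measured genes, with the 7 measured genes of the group named and 2-fold dotted. TXNIP at -1.37 lies far below the genes of like level, whereas ARRDC4, at a deposited -1.35, lies where the scatter is wide.

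The measured genes with the differences nearest to that of TXNIP over the 2 arrays were named as a description. Those just lower were LYPD6B (-1.42), SAT1 (-1.39), an enzyme that acetylates polyamines for export, and OCLN (-1.37), the tight junction protein occludin. Those just higher on the deposited values were ARRDC4, CSGALNACT2 (-1.35), an enzyme of chondroitin sulphate synthesis, and RHOU. ARRDC4 and RHOU had siKMO levels under 6, of 5.51 and 5.70. Their deposited differences were -1.35 and -1.33, and with 6 in place of those levels they were lower by at least 0.86 and 1.03, so neither is settled as a neighbour of TXNIP. SAT1 ran from -1.54 to -1.39 over 3 measured probe sets and CSGALNACT2 from -1.35 to -1.12 over 3. With 2 arrays the likeness is that of a single difference.

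Of the 11 measured genes listed beside TXNIP and ARRDC4 as targets of MLX dimers, 10 were lower and 1 was higher. Of these 11, 0 were lower by 2-fold and 3 by at least 1.5-fold, and the median difference was -0.14. Over all measured genes 44.1% were lower at all, 5.41% by at least 1.5-fold and 1.39% by 2-fold. BHLHE40, a clock-linked repressor, was at 10.69 with control siRNA and 9.82 with KMO siRNA, a difference of -0.87, with -0.53 on its other measured probe set. HK2, the hexokinase that traps glucose as glucose 6-phosphate, stood at 9.24 and 8.39, a difference of -0.85. KLF10, a zinc finger repressor, stood at 9.78 and 9.08, a difference of -0.70. BHLHE40 and HK2 are also known targets of the hypoxia factor HIF-1, so the list is not particular to MLX. The lipid synthesis targets differed little, with the desaturase SCD at -0.33, the elongase ELOVL6 at -0.14, ACLY at -0.12, FASN at -0.10 and ACACA at -0.01. The pentose phosphate enzyme TKT, at 0.01, was the 1 higher gene. The liver targets PKLR, G6PC1, GPD1, FGF21 and SLC2A2 were under the minimum, as was RGS16.

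Among the dimer partners of MAX and MLX, the MYC antagonist MXI1 was lower by 2-fold and its relative MXD1 by 1.5-fold. MXI1 stood at 9.52 with control siRNA and 8.37 with KMO siRNA, a difference of -1.15, and MXD1 at 6.73 and 6.13, a difference of -0.60. MNT, a repressor that pairs with both MAX and MLX, differed by -0.29, and MXD3 by -0.13. MAX differed by 0.27 (0.27 to 0.56 over 3 measured probe sets), MYC by 0.11 and MGA by 0.12. Of the 9 measured genes of this network, MLX and MLXIP included, 4 were higher and 5 lower, with a median of -0.01 that was 0.06 with the mean of each gene's probe sets and -0.29 without those whose names end in _x_at or _s_at.

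Glucose entry and the first steps of glycolysis went both ways. Of 16 measured genes 8 were higher and 8 lower, 1 of them by 2-fold, and the median of -0.04 changed sign without a level minimum (0.14) and without probe sets whose names end in _x_at or _s_at (0.13). SLC2A3, a high-affinity glucose transporter, was at 8.43 and 7.36, a difference of -1.07, and its 3 measured probe sets ran from -1.59 to -1.07. SLC2A1, the main transporter of most cultured cells and a cargo of TXNIP, stood at 8.92 and 8.71, a difference of -0.22. PFKFB4, which makes the activator of phosphofructokinase, differed by -0.82 (7.44 and 6.62), and SLC2A10 by -0.50. GPI, the next enzyme after hexokinase, differed by 0.30 and the muscle phosphofructokinase PFKM by 0.36.

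The thioredoxin system, which TXNIP inhibits, differed little. All 12 genes with a probe set were measured, 8 higher and 4 lower, with a median of 0.06. Of these, 0 reached 1.5-fold in either direction, against 10.6% of all measured genes. At such a share 12 genes would give few, so the count does not set them apart from other genes. Their levels were also high, with a median of 11.02 with control siRNA, and differences shrank at high levels. TXN, the cytosolic thioredoxin that TXNIP binds, stood at 11.94 with control siRNA and 12.24 with KMO siRNA, a difference of 0.30 (0.15 on its other probe set), the opposite direction to TXNIP. Mitochondrial TXN2 differed by 0.32, the mitochondrial peroxidase PRDX3 by -0.36 and the peroxidase PRDX6 by 0.28.

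The other arrestins and the ligases that alpha-arrestins recruit showed smaller differences than TXNIP, ARRDC3 and ARRDC4. Of 8 measured, 4 were higher and 4 lower, 0 by 1.5-fold on their leading probe sets, with a median of -0.10. Over all measured genes 10.6% passed 1.5-fold in either direction. At such a share 8 genes would give few, so the count does not set them apart. The ligase WWP1 differed by -0.48, and by -0.63, past 1.5-fold, on its other measured probe set. NEDD4L differed by -0.40 (-0.40 to -0.09 over 3 measured probe sets) and beta-arrestin ARRB1 by -0.28 (-0.55 to -0.28 over 4). SMURF2 differed by 0.42, and its 4 measured probe sets ran from -0.36 to 0.46, on both sides of 0. ITCH, which ubiquitinates TXNIP, stood at 7.79 and 7.82.

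Among known cargo and partners, ITGB4, the integrin beta4 that ARRDC3 sends to degradation, was 2.10-fold lower at 7.81 and 6.74, so that adaptor and cargo RNA were both lower. The other 7 measured genes of that list lay between -0.31 (VPS4B) and 0.30 (VPS4A), with the receptor IGF1R at -0.30, and the list median was -0.15. TSG101, the partner of ARRDC1, differed by -0.002. NLRP3, an inflammasome sensor that TXNIP can bind, was under the minimum at 2.68 on both arrays. AMPK is a kinase that marks TXNIP for degradation when energy is short. Of its subunits and its upstream kinases STK11 and CAMKK2, 7 genes were measured, 6 lower and 1 higher with a median of -0.16. The share lower was 44.1% over all measured genes. CAMKK2 at -0.01, PRKAG2 at -0.09 and PRKAB1 at -0.16 differed by less than the pooled SD of 0.18 between probe sets. The catalytic subunit PRKAA1 differed by -0.78 (-0.78 to -0.20 over 3 measured probe sets) and the beta subunit PRKAB2 by -0.75. The upstream kinase STK11 differed by -0.24, and PRKAG1 was the 1 higher gene at 0.16.

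**Figure D4:**
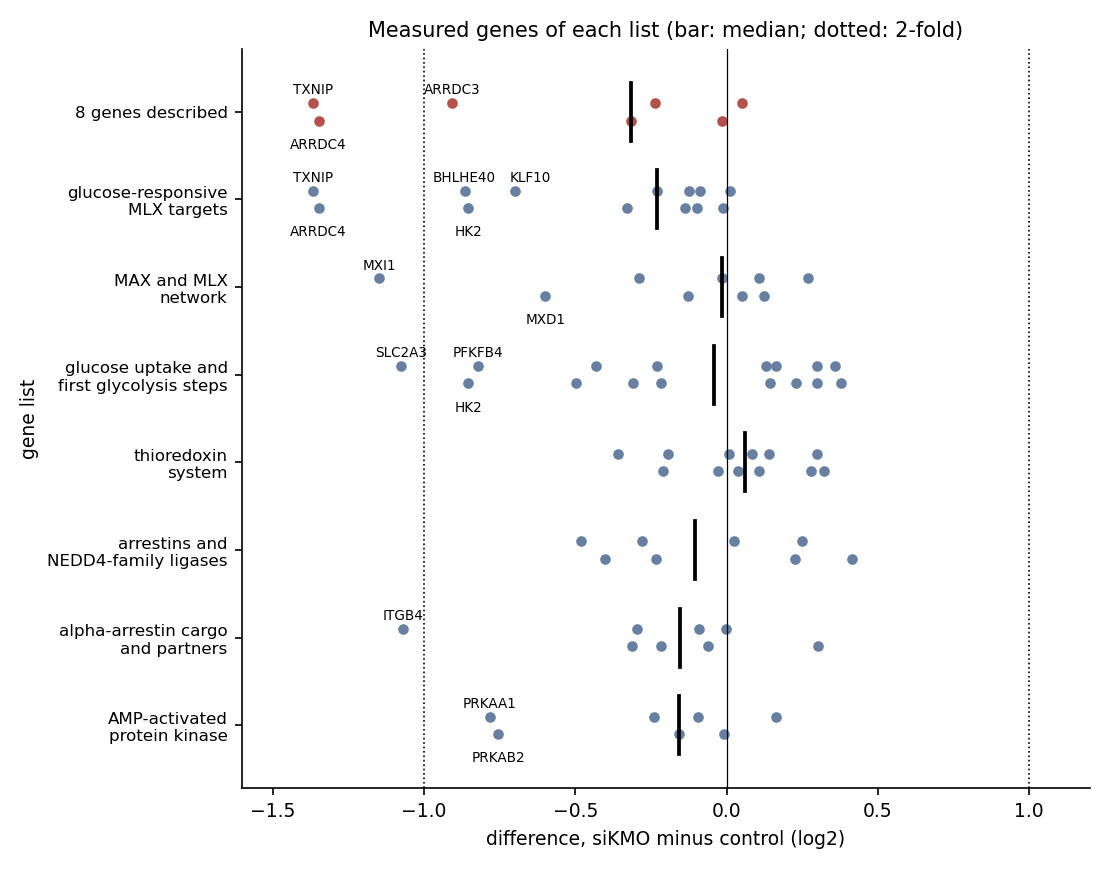
Difference (siKMO minus control, log2) of each measured gene in the group and in 7 related lists, with the list median as a bar, 2-fold dotted and genes lower by at least 1.5-fold named. TXNIP and ARRDC4 lie lowest, with deposited differences of -1.37 and -1.35, and the thioredoxin genes lie around 0.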

How the data were processed

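The deposited values are log2 levels made by the authors, per the labels, by robust multi-array averaging (RMA), which corrects background, quantile normalizes arrays and summarises probes. The software was Affymetrix Expression Console, per the submitters' processing notes. Its version, and which arrays were normalized jointly, is not stated in the labels. Sorted values of both columns differed by at most 0.064, so a shift shared by all transcripts cannot be seen. RMA values have no detection call, differences of weak genes are compressed, and with 2 arrays their number limits the precision.

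Of 54675 probe sets, 41091 carried 1 gene in the platform annotation, and 41037 of these were renamed by gene identifier against RefSeq (GRCh38.p14); 1801 with several genes were left unnamed. Named beside the 8 members were the 3 genes with the nearest higher and the 3 with the nearest lower difference to TXNIP and up to 4 genes per list with the largest absolute difference; any other gene named was picked with its values in view. The members, lists and settings were chosen with earlier results of these data known. A level under 6 was taken as 6 for bounds. Motifs were searched in RefSeq promoter windows. Values were computed with pandas 2.3.3 in Python 3.11.15, and the script that counts 2-fold genes was checked on simulated data with known answers.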

Additional observations from a re-analysis of the deposited data

How the results depend on the processing

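No paired analysis was possible because each condition had 1 array. The TXNIP difference of -1.37 was -1.44 as the mean of all its probe sets and -1.41 after centring on the median of measured genes; when _x_at and _s_at probe sets were left out, TXNIP had no value. The count of genes of the group lower by at least 2-fold was 2, and it was 1 at a level minimum of 7 and with levels under 6 taken as 6 (ARRDC4 drops out) and 1 without _x_at and _s_at probe sets (TXNIP drops out). Under the 7 alternatives 0 of the 8 genes were higher by 2-fold. Over all measured genes, the counts lower and higher by at least 2-fold, 125 and 77, became 77 and 51 at a minimum of 7, 214 and 128 with no minimum, and 67 and 46 with probe sets averaged per gene, and the lower count was 79 without _x_at and _s_at probe sets. ARRDC1 was 0.07 without those probe sets, MLX was 0.06 with its probe sets averaged, and the median over those of the 8 genes that passed the minimum, fewer of them under some alternatives, ran from -0.91 to -0.28. Weak levels limit ARRDC4 and MLXIPL.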

Other observations

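The 12 other measured genes whose promoter windows held the searched form of the carbohydrate response element differed by -0.59 to 0.28, with a median of -0.02. Of these, 0 were lower and 0 higher by at least 2-fold, against 1.14% and 0.836% of 7535 measured genes without that form. At such shares 12 genes would mostly give 0, so the count does not set them apart from other genes. The matches are runs of letters, and whether the element is used in these genes was not tested. None of the measured genes listed as targets of MLX dimers was among these 12. Their differences therefore do not describe carbohydrate-responsive genes in general. The lowest was P4HA1, a collagen prolyl hydroxylase, at 9.96 with control siRNA and 9.37 with KMO siRNA, a difference of -0.59. GFPT1, which opens the hexosamine pathway from fructose 6-phosphate, differed by -0.08, and the highest was the nuclear transport GTPase RAN at 0.28.

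Genes with the forkhead site in a promoter window were counted in the same way. Beside TXNIP and ARRDC3, 279 measured genes held it, and 8 of them (2.87%) were lower by at least 2-fold, against 78 of 7268 without it (1.07%); 3 were higher by as much (1.08%), against 60 (0.826%). The 8 were LTB (8.84 and 7.34), a lymphotoxin subunit, WT1, PLLP and GSN (2.07-, 2.05- and 2.01-fold lower), YPEL3 (8.02 with control siRNA and 6.72 with KMO siRNA), a senescence-linked gene, GDF15 (8.65 and 7.35), a stress-induced cytokine, MXI1 (9.52 and 8.37), and TSC22D3 (8.32 and 7.30), the glucocorticoid-induced leucine zipper. The median difference was -0.02 with the site and 0.05 without. The difference between these shares was not tested, and the comparison was made after the TXNIP values were known. E-boxes went with no excess of lower genes: 4 of 1008 measured genes (0.397%) were lower by 2-fold, against 1.25% without one.

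The antisense RNA ARRDC1-AS1 stood at 5.97 with control siRNA and 6.10 with KMO siRNA, and ARRDC3-AS1 was under the minimum at 4.33 on both.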
